A study of Mus musculus with 8 samples.

Results

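The genes of fibroblast growth factor (FGF) signalling described here were a ligand (*Fgf10*), the receptors *Fgfr1*, *Fgfr2* and *Fgfr3*, and genes that FGF signalling is known to induce, namely the inhibitors *Spry1*, *Spry2*, *Spry4* and *Dusp6* and the transcription factors *Etv4* and *Etv5*. They were chosen by symbol, with earlier results of these data known, and 10 of 10 were found among the 14608 genes of the table. The libraries were made from polyadenylated RNA of the outflow tract (OFT), the vessel through which the embryonic heart empties and where the arterial valves form, of mouse embryos at E11.5. A group of 4 libraries was labelled Control and titled WT, with no strain or littermate status given, and a group of 4 was labelled Mib1V943F/+ Gata6STOP/+. The mutant-labelled embryos carried 1 copy of a missense allele of *Mib1*, an E3 ubiquitin ligase that activates NOTCH ligands, and 1 copy of a STOP allele of *Gata6*, a zinc finger transcription factor of the heart, with the alleles on opposite chromosomes. The study's methods name no Cre or tissue-specific driver for either allele. The series' design text gives pools of 3 individuals and the study's methods give 3 pools of 4 pairs of OFT, so the number of embryos behind a library is not known.

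FGF ligands bind receptor tyrosine kinases on the cell surface with the help of heparan sulphate, and the active receptors signal through RAS, RAF and ERK kinases. ERK signalling induces the ETS factors *Etv4* and *Etv5*, which carry part of the transcriptional response, and it induces Sprouty proteins and the ERK phosphatase *Dusp6*, which dampen the pathway that induced them. The levels of these targets are for that reason commonly used as a readout of FGF activity. In the developing OFT, FGF10 is a known product of second heart field progenitors, and FGF signalling is known to act on the progenitors that lengthen the OFT and on the formation of its cushions.

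The reads on listed genes ran from 10669420 in control replicate 2 to 30469165 in mutant-labelled replicate 3, so that 1 read was worth 0.0325 to 0.0948 CPM, the unit of all levels here (reads scaled to a common library size). The groups overlapped in *Gata6*, at 236 to 279 CPM in control and 213 to 284 CPM in mutant-labelled libraries (adjusted p = 0.752 in limma), and in *Mib1*, at 107 to 138 and 123 to 137 CPM (adjusted p = 0.746 in limma). The RNA level of the targeted genes therefore did not separate the labels. Gene counts do not tell the alleles of a gene apart, so this overlap cannot decide the genotype of a library. Mutant-labelled replicate 2 stood apart from its group, with a chi-square per gene of 30.8 to 33.7 against the other mutant-labelled libraries and 6.67 to 18.5 in all other pairs of replicates. By limma on log2(CPM + 0.5), adjusted over all genes, 0 of 14608 genes (0.0%) passed an adjusted p of 0.05, and 1763 (12.1%) had an unadjusted p under 0.05. On the reads recovered from the values, 0 genes passed in the quasi-likelihood test of edgeR, 107 in its likelihood ratio test and 192 in DESeq2. Of 10 lists of cell type markers, the summed level separated the groups in 1, the cardiomyocyte list, at 29490 to 34540 CPM in control and 23490 to 27420 CPM in mutant-labelled libraries. All 15 of its genes were lower in the mutant-labelled mean, 14 of them at an unadjusted p under 0.05, and the defining marker *Tnnt2* ran from 1345 to 2031 CPM over the libraries. The summed levels of the other 9 lists overlapped, such as cushion mesenchyme at 6620 to 7109 CPM in control and 6007 to 8193 CPM in mutant-labelled libraries. A summed level can hide single genes. In the second heart field list, 5 of 8 genes had a log2 difference above 0 and 3 below. At an unadjusted p under 0.05 in limma, 2 were higher (*Isl1* and *Tbx1*) and 0 lower, beside 5.45% and 6.62% of all genes. *Isl1*, at 25.7 to 33.0 CPM in control and 40.7 to 59.2 CPM in mutant-labelled libraries, separated the groups. Mutant-labelled replicate 2 had the highest summed level in the lists of cushion mesenchyme (8193 CPM), epicardium and mesothelium (673), macrophages (88.5) and erythroid cells (5666). It had the lowest in those of cardiomyocytes (23490), smooth muscle (2735), second heart field (477) and neural crest, glia and neurons (99.1). The part of these differences in the levels of the FGF genes was not tested. Fewer cells of a type and less RNA per cell cannot be told apart in these bulk libraries.

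**Figure D1:**
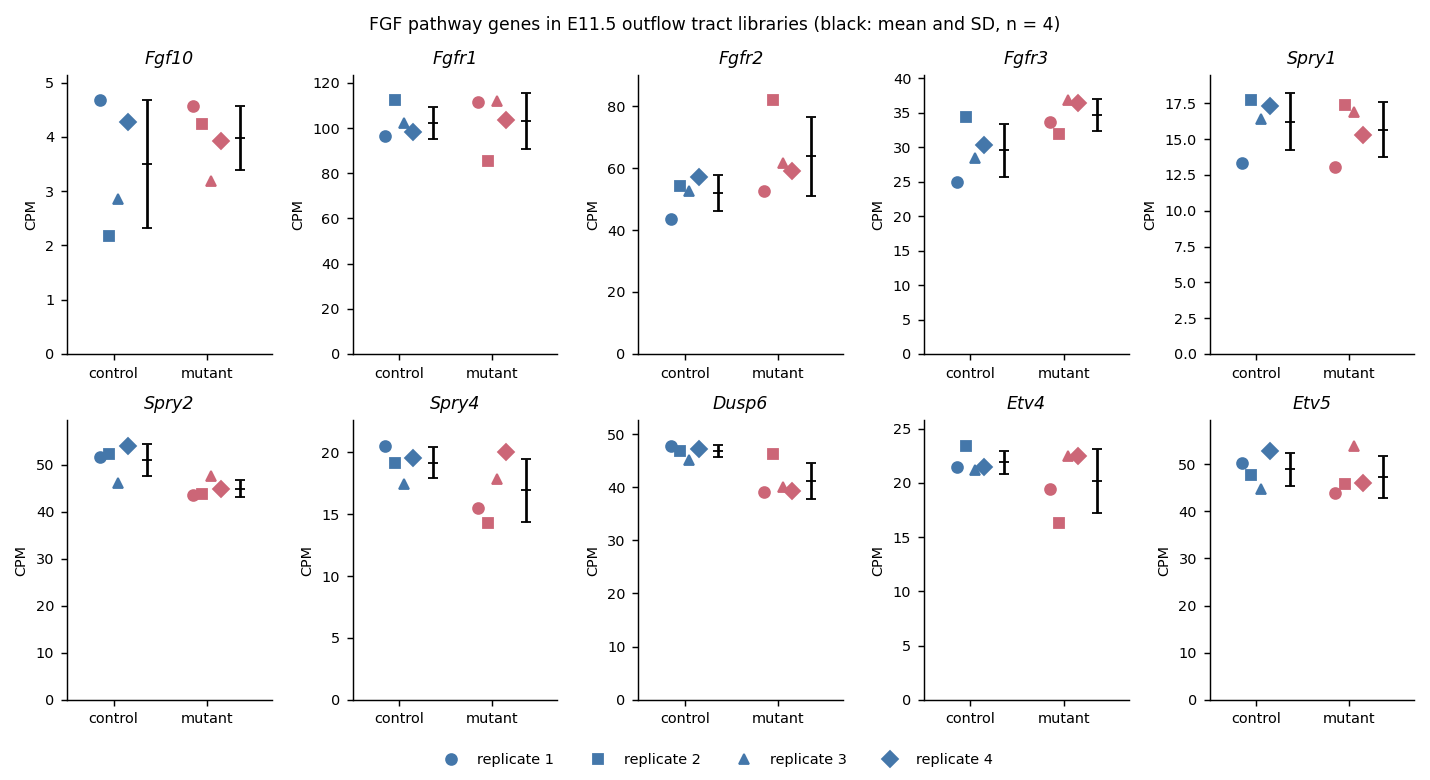
Level of each of the 10 genes in CPM (vertical axes, 1 panel per gene, starting at 0) in the 4 control and the 4 mutant-labelled libraries, with a marker shape for each replicate number and black bars for the mean ± SD of each group (n = 4). The groups overlap in 10 of 10 panels, and mutant-labelled replicate 2 is the highest library in *Fgfr2* and the lowest in *Fgfr1*, *Spry4* and *Etv4*.

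The receptors *Fgfr2* and *Fgfr3* were on average 1.22-fold and 1.18-fold as high in mutant-labelled as in control OFT, while the inhibitors *Spry2* and *Dusp6* were at 0.883-fold and 0.880-fold. *Fgfr1*, *Spry1* and *Etv5* had group means within the spread of their replicates, and *Fgf10*, *Spry4* and *Etv4* had intervals that include no difference. None of these differences passed the adjusted threshold, with 0 of the 10 genes beside 0.0% of all genes. At an unadjusted p under 0.05 in limma there were 4 of 10, beside 12.1% of all genes. These were 2 receptors that were higher (*Fgfr2* and *Fgfr3*, beside 5.45% of all genes higher) and 2 inhibitors that were lower (*Spry2* and *Dusp6*, beside 6.62% lower). As the 10 genes were chosen with earlier results of these data known, these shares describe them and do not test for an excess. When single libraries were left out the 4 became 0 to 3, and there were 0 without control replicate 1. The groups overlapped in 10 of 10 genes, and did not overlap in 7.1% of all genes. The ligand and the receptors had a log2 difference above 0, and the 6 induced genes had one below 0, as had 49.6% of all genes. This pattern of signs held in 13 of 18 alternatives, of which 1, with a mean of at least 5 CPM, had no value for *Fgf10*, and *Fgfr1* or *Spry1*, whose differences were near 0, turned it in the others. The median log2 difference was −0.05, against 0.00 over all genes. On the recovered reads, 0 of 10 passed an adjusted p of 0.05 in the likelihood ratio test of edgeR (0.732% of all genes) and in DESeq2 (1.31%). In those tests, which used the same libraries, 4 of 10 had an unadjusted p under 0.05, beside 1660 and 1751 of all 14608 genes.

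**Figure D2:**
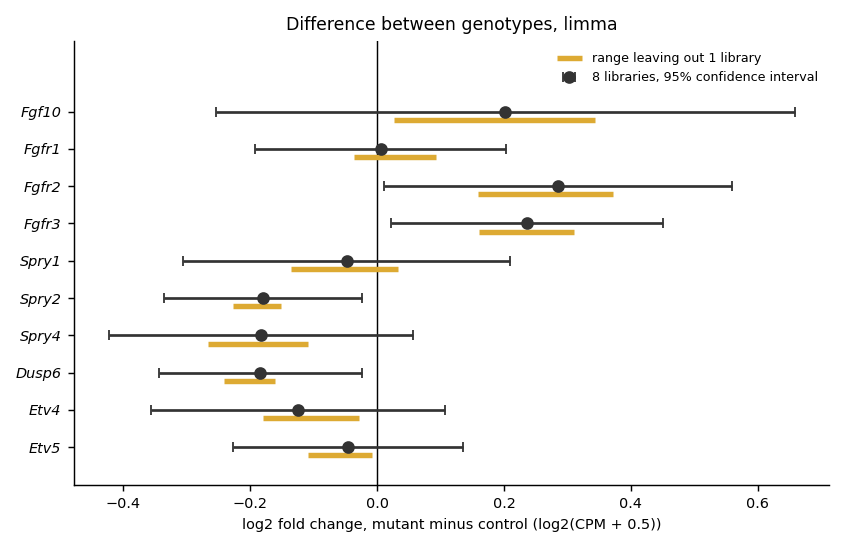
Log2 difference of each gene on the scale of log2(CPM + 0.5), mutant-labelled minus control (horizontal axis), with its 95% interval from limma and, in yellow, the range over fits that leave out 1 library. The intervals of *Fgfr2* and *Fgfr3* lie above 0 and those of *Spry2* and *Dusp6* below 0 before adjustment for the number of genes, and the other 6 include 0.

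*Fgf10* (ENSMUSG00000021732, GRCm38 chromosome 13 from 118669791 to 118792115, plus strand) encodes a secreted FGF that signals mainly through the IIIb isoform of FGFR2. It was measured at 4.68, 2.18, 2.86 and 4.28 CPM in the controls (replicates 1 to 4) and 4.58, 4.23, 3.19 and 3.92 CPM in the mutant-labelled libraries. The 4 mutant-labelled values lay within the control range, and the group means were 3.50 ± 1.18 CPM (SD, n = 4) and 3.98 ± 0.592 CPM. The log2 difference, mutant-labelled minus control, was 0.20 (95% interval −0.25 to 0.66, adjusted p = 0.700 in limma, exact permutation p = 0.486). It was the least abundant of the genes, with 23 reads in control replicate 2 and 71 to 130 reads in the other libraries. The 23 reads carry a 95% Poisson interval of 1.38 to 3.27 CPM, which covers counting error only, and the interval of the difference reaches from 0.838-fold to 1.58-fold. The difference was 0.03 without control replicate 2, 0.34 without control replicate 1, 0.30 without control replicate 4 and 0.09 with a correction for the GC content of genes.

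*Fgfr1* (ENSMUSG00000031565, chromosome 8 from 25513654 to 25575718, plus strand), the most widely expressed FGF receptor of mesoderm, was measured at 96.5, 112, 102 and 98.3 CPM in the control libraries in order of their number, against 112, 85.5, 112 and 103 CPM in the mutant-labelled ones. The libraries with the lowest value, mutant-labelled replicate 2, and with values at the top, mutant-labelled replicates 1 and 3 and control replicate 2, came from both groups. The means were 102 ± 7.13 CPM (SD, n = 4) and 103 ± 12.5 CPM, and the log2 difference was 0.01 (95% interval −0.19 to 0.20, adjusted p = 0.984 in limma, exact permutation p = 0.914). As a fold, the interval ran from 0.875 to 1.15.

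*Fgfr2* (ENSMUSG00000030849, chromosome 7 from 130162451 to 133123350, minus strand) encodes a receptor with a IIIb isoform typical of epithelium and a IIIc isoform typical of mesenchyme, which gene counts do not separate. It was measured at 43.6, 54.1, 52.4 and 57.1 CPM in the 4 control replicates, by number, and at 52.6, 82.0, 61.6 and 59.1 CPM in those of the mutant-labelled group. Mutant-labelled replicates 2, 3 and 4 were above every control library and mutant-labelled replicate 1 was inside the control range. The means were 51.8 ± 5.82 CPM (SD, n = 4) and 63.8 ± 12.7 CPM, and the log2 difference of 0.29 (95% interval 0.01 to 0.56) did not pass the threshold (adjusted p = 0.402 in limma, exact permutation p = 0.0857), while its unadjusted p in limma was 0.0430. Without mutant-labelled replicate 2, the highest library, the difference was 0.16 and the unadjusted p in limma was 0.122. The annotated span of *Fgfr2* is long and shares 314 bp of exon on the same strand with *Ctbp2*, so that some reads may be split between them. Of the epithelial markers, 3 of 20 had a row, at a summed 70.2 to 89.5 CPM in control and 78.2 to 85.9 CPM in mutant-labelled libraries, and the defining markers *Epcam* and *Cdh1* had none.

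*Fgfr3* (ENSMUSG00000054252, chromosome 5 from 33721674 to 33737068, plus strand), the receptor best known for limiting the growth of cartilage, was measured at 25.0, 34.3, 28.5 and 30.3 CPM in the controls (replicates 1 to 4) and 33.7, 31.9, 36.9 and 36.4 CPM in the mutant-labelled libraries. Mutant-labelled replicates 3 and 4 were above every control library, and the other two lay between control replicates 4 and 2. The means were 29.5 ± 3.89 CPM (SD, n = 4) and 34.7 ± 2.36 CPM, and the log2 difference of 0.24 (95% interval 0.02 to 0.45) did not pass the threshold (adjusted p = 0.393 in limma, exact permutation p = 0.0857), while its unadjusted p in limma was 0.0340. With a correction of each library for the GC content of genes, the difference was 0.32 and its adjusted p was 0.167 in limma, the lowest of any of the 10 genes in any of the fits. The exons of *Fgfr3* overlap 998 bp of a gene on the opposite strand. Such overlaps were 710 bp for *Spry1*, 164 bp for *Fgfr1* and 123 bp for *Fgf10*. The study's methods name a directional library kit, while the strand setting of the counting is not given in the sources used here.

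Levels of the receptors were set side by side as CPM per kb of merged exons, since longer genes collect more reads. As shares of the sum over *Fgfr1* to *Fgfr4*, *Fgfr1* took 52.5% ± 2.17 of the level in control (SD, n = 4) and 47.8% ± 5.02 in mutant-labelled libraries. *Fgfr2* took 25.3% ± 1.77 and 28.4% ± 6.11, and *Fgfr3* took 20.8% ± 1.07 and 22.2% ± 1.11. *Fgfr4* was a minor receptor in every library, at 1.46% ± 0.149 and 1.62% ± 0.513. By this measure *Fgfr1* led in each of the 8 libraries, from 40.7% in mutant-labelled replicate 2, where *Fgfr2* reached 37.3%, to 55.1% in a control library. The groups overlapped in the share of each receptor. The shares depend on the length used. With the longest transcript of each gene, *Fgfr1* took 39.2% to 54.5% and *Fgfr2* 27.9% to 42.8% over the libraries, and *Fgfr2* led in mutant-labelled replicate 2.

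Of the Sprouty genes, *Spry1* (ENSMUSG00000037211, chromosome 3 from 37639947 to 37644598, plus strand), an intracellular antagonist of receptor tyrosine kinases, was measured at 13.3, 17.7, 16.4 and 17.3 CPM in the control libraries in order of their number, against 13.1, 17.4, 16.9 and 15.3 CPM in the mutant-labelled ones. Control and mutant-labelled libraries were mixed over the whole range, from 13.1 to 17.7 CPM. The log2 difference was −0.05 (95% interval −0.31 to 0.21, adjusted p = 0.883 in limma, exact permutation p = 0.686), and it was 0.03 without mutant-labelled replicate 1. *Spry2* (ENSMUSG00000022114, chromosome 14 from 105891947 to 105896819, minus strand), a Sprouty that binds the adaptor GRB2 and the ubiquitin ligase CBL, was measured at 51.7, 52.3, 46.1 and 54.1 CPM in the 4 control replicates, by number, and at 43.6, 43.9, 47.5 and 44.8 CPM in those of the mutant-labelled group. Mutant-labelled replicates 1, 2 and 4 were below every control library, and replicate 3 was above the lowest control library. The means were 51.0 ± 3.41 CPM (SD, n = 4) and 44.9 ± 1.81 CPM. The log2 difference of −0.18 (95% interval −0.34 to −0.02) did not pass the threshold (adjusted p = 0.378 in limma, exact permutation p = 0.0571), while its unadjusted p in limma was 0.0273.

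*Spry4* (ENSMUSG00000024427, chromosome 18 from 38586247 to 38601415, minus strand), a Sprouty known as an early FGF target, was measured at 20.5, 19.2, 17.5 and 19.5 CPM in the controls (replicates 1 to 4) and 15.5, 14.3, 17.9 and 20.0 CPM in the mutant-labelled libraries. Mutant-labelled replicates 1 and 2 were below every control library, and replicates 3 and 4 were inside the control range. The means were 19.2 ± 1.28 CPM (SD, n = 4) and 16.9 ± 2.54 CPM, with a log2 difference of −0.18 (95% interval −0.42 to 0.06, adjusted p = 0.508 in limma, exact permutation p = 0.200). The difference was −0.11 without mutant-labelled replicate 2. With replicate 4 of that group left out instead, it was −0.27 and the unadjusted p in limma was 0.0317. The SD of the mutant-labelled group was larger than the difference of the means. The gene lies on the same chromosome as *Mib1* and *Gata6*.

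*Dusp6* (ENSMUSG00000019960, chromosome 10 from 99263231 to 99267489, plus strand), the cytoplasmic phosphatase that inactivates ERK, was measured at 47.8, 46.8, 45.2 and 47.3 CPM in the control libraries in order of their number, against 39.2, 46.3, 40.0 and 39.3 CPM in the mutant-labelled ones. The control libraries lay close together, mutant-labelled replicates 1, 3 and 4 were below all of them, and mutant-labelled replicate 2 was inside their range. The means were 46.8 ± 1.13 CPM (SD, n = 4) and 41.2 ± 3.41 CPM. The log2 difference of −0.18 (95% interval −0.34 to −0.02) did not pass the threshold (adjusted p = 0.378 in limma, exact permutation p = 0.0571), while its unadjusted p in limma was 0.0276. Without mutant-labelled replicate 2 the difference was −0.24 with an adjusted p of 0.303 in limma. The summed level of cardiomyocyte markers was also lower in each mutant-labelled library than in each control library, and its part in the values of *Spry2* and *Dusp6* was not tested.

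The promoters of *Spry2* and *Dusp6*, the members with the smallest p-values among those that were lower, are shown as the 250 bases before the RefSeq start site (GRCm38.p6, 5′ to 3′ on the strand of the gene). Capitals mark AGGAAG on either strand, which reads CTTCCT on the other strand and is a core that ETS factors such as ETV4 and ETV5 can bind.
Spry2, chr14:105896820-105897069, minus strand: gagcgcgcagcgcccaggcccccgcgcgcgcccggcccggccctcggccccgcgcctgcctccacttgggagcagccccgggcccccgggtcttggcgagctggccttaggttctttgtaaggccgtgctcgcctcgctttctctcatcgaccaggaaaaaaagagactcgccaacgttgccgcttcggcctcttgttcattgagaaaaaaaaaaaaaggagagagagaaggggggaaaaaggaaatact
Dusp6, chr10:99262981-99263230, plus strand: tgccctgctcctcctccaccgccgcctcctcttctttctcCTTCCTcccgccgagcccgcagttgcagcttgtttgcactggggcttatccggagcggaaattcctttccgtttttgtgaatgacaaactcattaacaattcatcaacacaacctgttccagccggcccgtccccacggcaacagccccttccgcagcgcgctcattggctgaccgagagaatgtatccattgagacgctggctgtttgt
The *Dusp6* promoter held 1 match, with its first base at position −210 from the start site, and the *Spry2* promoter held none in this window. The RefSeq table held 9 promoters of 7 of the 10 genes, with a pair each for *Fgfr3* and *Etv5* and none for *Fgfr1*, *Spry4* and *Etv4*. Of these 9 promoters, 2 held the letters (*Dusp6* and *Fgfr2*), beside 29.5% of all 32851 promoters. A second ETS core, CCGGAA, which shares the letters GGAA with the first and was also searched on both strands, was in 0 of the 9 promoters and in 12.03% of all promoters. A match describes the sequence and is not a measured binding site.

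The ETS factor *Etv4* (ENSMUSG00000017724, chromosome 11 from 101769742 to 101785371, minus strand) was measured at 21.5, 23.4, 21.2 and 21.4 CPM in the 4 control replicates, by number, and at 19.5, 16.3, 22.5 and 22.5 CPM in those of the mutant-labelled group. Mutant-labelled replicates 1 and 2 were below every control library, while replicates 3 and 4 were above all controls but replicate 2. The means were 21.9 ± 1.04 CPM (SD, n = 4) and 20.2 ± 2.94 CPM, with a log2 difference of −0.13 (95% interval −0.36 to 0.11, adjusted p = 0.629 in limma, exact permutation p = 0.400). Without mutant-labelled replicate 2 the difference was −0.03, and with the GC correction it was −0.01. Its relative *Etv5* (ENSMUSG00000013089, chromosome 16 from 22381309 to 22439719, minus strand) was measured at 50.2, 47.7, 44.7 and 52.9 CPM in the controls (replicates 1 to 4) and 43.8, 45.7, 53.9 and 46.0 CPM in the mutant-labelled libraries. The highest library was mutant-labelled replicate 3 and the lowest was mutant-labelled replicate 1, on either side of the controls. The means were 48.9 ± 3.49 CPM (SD, n = 4) and 47.4 ± 4.47 CPM, with a log2 difference of −0.05 (95% interval −0.23 to 0.14, adjusted p = 0.834 in limma, exact permutation p = 0.600).

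By level per length over the 8 libraries, the order began with *Spry2* at 23.0 ± 1.98 CPM per kb (SD, n = 8), followed by *Dusp6* at 14.04 ± 1.21, *Etv5* at 11.7 ± 0.926 and *Fgfr1* at 10.4 ± 0.954 CPM per kb. Then came *Etv4* at 6.78 ± 0.721, *Fgfr2* at 5.60 ± 1.08, *Spry1* at 5.48 ± 0.634, *Fgfr3* at 4.49 ± 0.567 and *Spry4* at 3.80 ± 0.466 CPM per kb. *Fgf10* was last, at 0.813 ± 0.195 CPM per kb. Ranges over the libraries did not overlap between *Spry2* and *Dusp6*, between *Fgfr1* and *Etv4* and between *Spry4* and *Fgf10*, and all other neighbours in the order overlapped. With the longest transcript in place of merged exons, *Fgfr1* moved to 20.4 and *Fgfr2* to 13.1 CPM per kb, the second and the fourth places, while *Spry2* stayed first at 23.0 and *Fgf10* last at 0.909 CPM per kb.

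**Figure D3:**
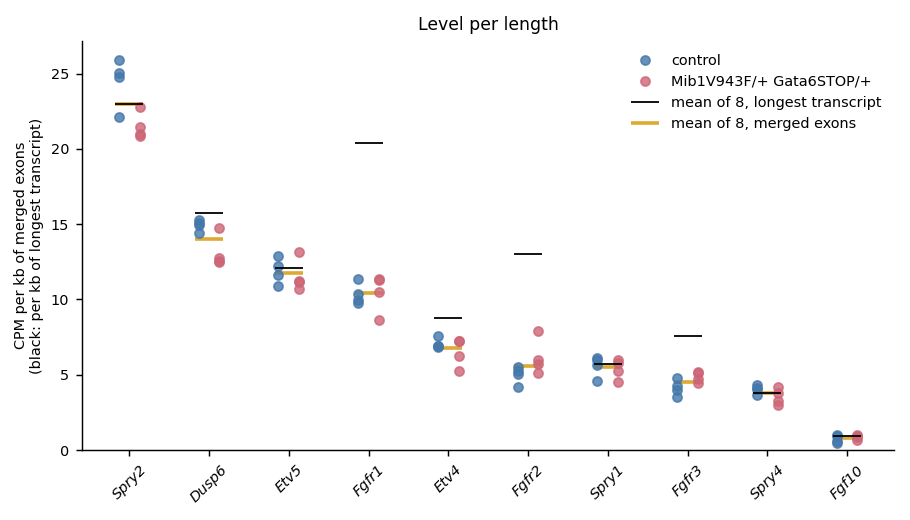
Level per length of each gene in CPM per kb of merged exons (vertical axis, from 0) in each of the 8 libraries, with genes ordered by their mean. Yellow bars mark that mean and black bars the mean per kb of the longest transcript. *Spry2* at 23.0 CPM per kb and *Fgf10* at 0.813 CPM per kb stand clear of their neighbours.

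Libraries differed in which genes were at their extremes. Mutant-labelled replicate 2 held the highest *Fgfr2*, 0.52 above the mean of the 8 libraries on the log2 scale, and the lowest *Fgfr1* (−0.26), *Spry4* (−0.32) and *Etv4* (−0.35). Mutant-labelled replicate 1 was the lowest library for 4 genes, and control replicates 1 and 2 were each the highest for 3. Within the groups, deviations from the group mean ran most closely together for *Spry2* and *Etv5* (Pearson r = 0.87), *Fgfr2* and *Spry1* (0.86) and *Spry4* and *Etv4* (0.82), and most oppositely for *Fgfr1* and *Dusp6* (−0.83). These are descriptions of 8 libraries that share their depth and tissue makeup across genes. Over all genes of 5 CPM or more on average, this measure put *Azi2*, *Dnajc1* and *Papola* nearest to *Fgf10* (0.99 each), *Grid1*, *Spsb4* and *Nat8l* nearest to *Etv4* (0.98 each) and *Mrps14*, *Blzf1* and *Xrn1* nearest to *Dusp6* (0.99 each). As 157 to 168 of about 11650 genes exceeded 0.9 for each of the 3, likeness over so few libraries was common.

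**Figure D4:**
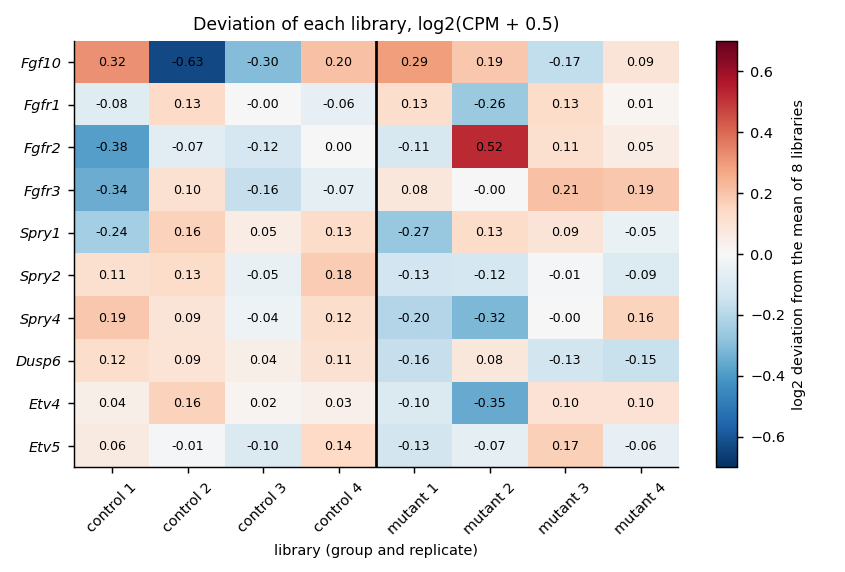
Heat map of the deviation of each gene (rows) from its mean over the 8 libraries (columns), on the scale of log2(CPM + 0.5). Mutant-labelled replicate 2 combines the highest *Fgfr2* (0.52) with the lowest *Etv4* (−0.35), and no gene separates the groups.

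Beyond these genes, 134 symbols of the pathway were listed in 6 lists and 114 had values. Adjusted over all genes, 0 of 114 passed in limma, and 13 (11.4%) had an unadjusted p under 0.05 beside 12.1% of all genes, with 4 higher and 9 lower. Their median log2 difference was 0.00. The groups did not overlap in 8 of the 114, beside 7.1% of all genes. These included *Mycn*, *Gpc4*, *Cdh2*, *Extl3*, *Hras* and *Dusp2*. The gene nearest to the threshold was *Mycn*, a growth-promoting transcription factor, at 55.0, 67.0, 58.2 and 55.8 CPM in control and 49.3, 45.6, 43.3 and 42.0 CPM in mutant-labelled libraries. Every mutant-labelled library was below every control library, and the log2 difference was −0.38 (adjusted p = 0.195) in limma. It was the 1 gene of the lists past an adjusted p of 0.05 in the likelihood ratio test of edgeR (adjusted p = 0.0123) and in DESeq2 (adjusted p = 0.00474).

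Among other ligands, 7 of 21 had values, and 1 had an unadjusted p under 0.05, beside 12.1% of all genes. This was *Fgf13*, an intracellular FGF homologous factor that does not act as a secreted ligand, at 25.2 ± 3.31 CPM in control (SD, n = 4) and 19.7 ± 1.16 CPM in mutant-labelled libraries. Its log2 difference was −0.34 (adjusted p = 0.270) in limma. *Fgf8*, *Fgf3*, *Fgf15* and *Fgf7* had no row. Of receptors and co-receptors, 16 of 18 had values, with 0 higher and 3 lower at an unadjusted p under 0.05. Over all genes, 5.45% were higher and 6.62% lower at that level. The heparan sulphate proteoglycans *Gpc4*, with a log2 difference of −0.25 (adjusted p = 0.281) in limma, and *Gpc1*, with −0.25 (adjusted p = 0.347), and N-cadherin (*Cdh2*), with −0.14 (adjusted p = 0.413), made up the 3. *Gpc4* was at 57.4 ± 0.793 CPM (SD, n = 4) and 48.3 ± 4.87 CPM, and its groups did not overlap.

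Of genes for heparan sulphate synthesis, 17 of 18 had values. At an unadjusted p under 0.05, 2 were higher and 1 lower, beside 5.45% and 6.62% of all genes. *Sulf1*, which removes 6-O-sulphate groups from heparan sulphate, had a log2 difference of 0.45 (adjusted p = 0.292) in limma, with mutant-labelled replicate 2 at 236 CPM and the other mutant-labelled libraries at 139 to 162 CPM. *Ugdh*, which makes a sugar precursor, had 0.24 (adjusted p = 0.274), and the glycosyltransferase *Extl3* had −0.17 (adjusted p = 0.364). All 28 adaptors and RAS-ERK genes had values, and *Hras*, a small GTPase that relays receptor signals, had a log2 difference of −0.24 (adjusted p = 0.368) in limma, without overlap of the groups. Of the 21 other feedback inhibitors, 0 were higher and 2 lower at an unadjusted p under 0.05, beside 5.45% and 6.62% of all genes. The 2 were the phosphatases *Dusp2* with −0.37 (adjusted p = 0.333) and *Dusp10* with −0.29 (adjusted p = 0.376) in limma. Of the genes listed as other response genes, 25 of 28 had values. At an unadjusted p under 0.05 in limma, 1 was higher and 1 lower, beside 5.45% and 6.62% of all genes. The lower one was *Mycn*. The higher one, the T-box factor *Tbx1*, was at 2.45 ± 0.946 CPM in control (SD, n = 4) and 3.81 ± 0.857 CPM in mutant-labelled libraries. Its log2 difference was 0.58 (adjusted p = 0.388) in limma. *Tbx1* was also in the list of second heart field markers, and whether it responded to FGF here was not tested.

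**Figure D5:**
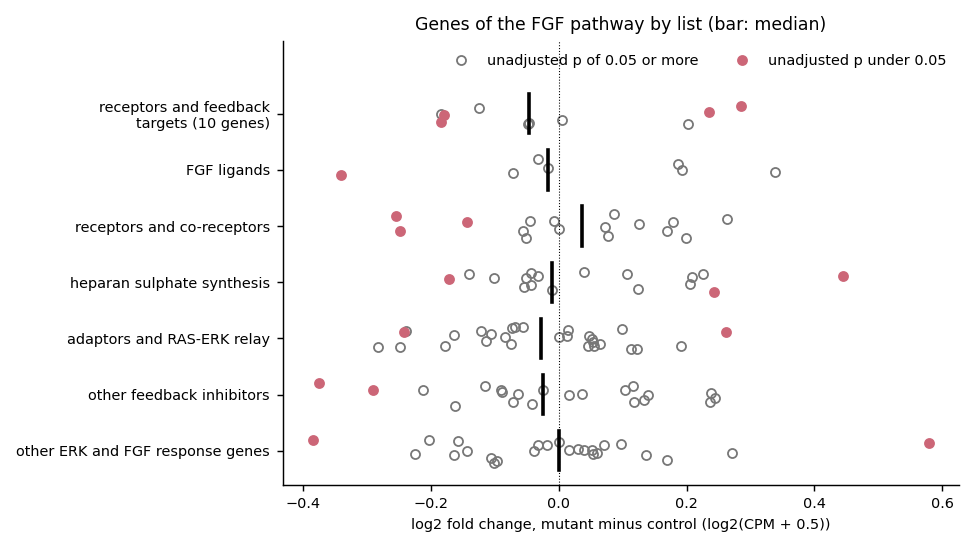
Log2 difference of each gene of the 6 pathway lists and of the 10 members (horizontal axis, mutant-labelled minus control), 1 point per gene, with a bar at the median of each list. Filled points have an unadjusted p under 0.05 in limma, and the medians of the 6 lists lie between −0.03 and 0.04.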

How the data were processed

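RNA-seq reads of 4 control and 4 Mib1V943F/+ Gata6STOP/+ libraries, in the groups of the sample labels, were trimmed with cutadapt by the authors. They were quantified with RSEM over GRCm38 with the Ensembl genebuild and scaled by TMM in edgeR. The study's methods give a filter of 1 CPM in 3 or more samples. In the deposited values every gene reached 1 CPM in at least 4 libraries. The deposited values are CPM for 14608 genes, with 0 columns left out. All values were whole multiples of 1 read within 0.01 reads (100%), and these reads were used for count tests. Differences were fitted on log2(CPM + 0.5) in limma 3.58.1 (R 4.3.3) with a mean-variance trend, two-sided, and adjusted by Benjamini-Hochberg over all genes at 0.05. A log2 difference on this scale understates changes of low genes. The exact permutation test over 70 relabellings was two-sided and cannot give a p under 0.0286. It is given unadjusted, 1 test for each of 10 genes. Unless the labels' pools are separate embryos, p-values measure only the spread between these samples.

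Members and lists were chosen with earlier results of these data known. Named are all members, up to 3 genes per pathway list with the smallest unadjusted p under 0.05 and the 3 genes most like *Fgf10*, *Etv4* and *Dusp6*. A gene that this rule selected is not reported here. Coordinates and exon lengths are from GENCODE for GRCm38, in which 14594 identifiers matched, and promoters are from RefSeq. Alternatives were pseudocounts of 0.1 and 2 CPM, a mean of at least 5 CPM, median-of-ratios and upper-quartile scaling, edgeR 4.0.16 (quasi-likelihood and likelihood ratio tests) and DESeq2 1.42.0 on the recovered reads, a replicate block, a GC correction, each library left out and the longest transcript as length. The code was tested on simulated data. Depth is given by the reads on listed genes, and Poisson intervals cover counting error only.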

Additional observations from a re-analysis of the deposited data

Results flagged for a closer look

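Among 20 groups of 4 libraries tested, 1 for each of 10 genes and 2 genotypes, 2 held a library far from the other 3, where chance gives about 1. *Dusp6* in mutant-labelled replicate 2 was at 46.3 CPM, within the control range, while the other mutant-labelled libraries were at 39.2 to 40.0 CPM, and the gap took 0.885 of the range of the group. *Etv4* in control replicate 2, the library with the fewest reads, was at 23.4 CPM, while the other controls were at 21.2 to 21.5 CPM, and the gap took 0.854 of the range.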

How the results depend on the processing

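Of the 10 genes, 0 passed the adjusted threshold in any of the 18 alternatives. Of 179 log2 differences under alternatives, 173 kept their direction and 6 reversed. *Fgfr1*, near 0 in all of them, ran from −0.037 to 0.093 with single libraries left out, at −0.022 and −0.013 when control replicate 1 or 4 was the one omitted and −0.035 and −0.037 when it was mutant-labelled replicate 1 or 3. *Spry1* ran from −0.14 to 0.033 with single libraries left out, the latter without mutant-labelled replicate 1, and was 0.029 with the GC correction. That correction also moved *Fgf10* to 0.09, *Fgfr1* to 0.07, *Etv4* to −0.01 and *Etv5* to −0.03, each by over 1.5 times. The number of all genes past the threshold was 0 in limma and in the quasi-likelihood test of edgeR (1763 and 1708 at an unadjusted p under 0.05), 107 in the likelihood ratio test and 192 in DESeq2, and the number of pathway genes was 0 in limma and 1 in both of the latter. The cause was not tested. *Fgf10* has no value with a mean of at least 5 CPM. By the longest transcript, the levels per length of *Fgfr1*, *Fgfr2*, *Fgfr3*, *Dusp6* and *Etv4* were 20.4, 13.1, 7.57, 15.7 and 8.78 CPM per kb.

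Replicates of the same number did not deviate together (correlations −0.19 to 0.03, against −0.22 to 0.25 for other pairs). So few pairs of libraries cannot exclude a pairing by number, and the labels do not say whether equal numbers were paired. With the replicate block, 0 genes passed the threshold, 1304 had an unadjusted p under 0.05, and 1 of the 10 genes (*Fgfr2*) did, against 4. Depth limits *Fgf10* most, with 23 to 130 reads.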
